A study of Mus musculus with 3 samples.

Results

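CTCF peaks in the introns of very long genes were examined in LSK cells, the Lin-, Sca1+, cKit+ fraction of mouse bone marrow that holds hematopoietic stem cells and multipotent progenitors. A peak was a member when its midpoint lay in no exon and inside a protein-coding gene record of 200 kb or longer, and when the whole peak stayed clear of every transcription start site (TSS) of a GENCODE M21 gene record and of the 1 kb on each side of it. The rule reads only the annotation and the position of the peak, not its strength. It was met by 1759 of the 18945 peaks in the list (9.29%, 95% interval 8.88% to 9.71%), and these lay in 675 of 998 gene records of that length. The peaks came from 1 chromatin immunoprecipitation (ChIP-seq) library made with a CTCF antibody from LSK cells of adult C57BL6 male mice, sorted for cKit+ and Sca1+ and against the lineage markers CD4, CD8, CD11b, CD45R, Ly6g and Ter119 as well as IL7Ra. The series sets this library beside inputs of LSK cells and of megakaryocyte erythroid progenitors, which were not analyzed here. No replicate of the ChIP library exists in the series, so no test between samples was possible, and the intervals printed cover counting error only.

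CTCF is a zinc finger protein that binds a long, oriented DNA motif. Cohesin, which extrudes loops of chromatin, is halted at CTCF sites, and loops form most often between motifs that point toward each other. Very long genes are mostly intron, many encode proteins of neurons, muscle or cell adhesion, and an intronic CTCF site can mark a domain boundary inside a gene, lie near a regulatory element or be crossed by the transcribing polymerase.

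The bases under the peaks are shown first, because the comparison of occupied with unoccupied motifs returns to them. All sequences are from GRCm38 (mm10), written 5′ to 3′ on the strand of the motif, with capitals for the bases that match the 12 positions of the CTCF core motif. The first set is drawn from the members with the highest fold enrichment, shown where the peak held a single site with no mismatch or, failing that, a single site with 1 mismatch, and leaving out the peak in Ctif.
Gm20388, fold enrichment 31, chr8:120179060-120179095, plus strand: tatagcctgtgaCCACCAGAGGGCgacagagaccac
Zfhx3, fold enrichment 29.37, 1 mismatch, chr8:108911706-108911741, plus strand: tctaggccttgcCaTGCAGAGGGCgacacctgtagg
Ctnna3, fold enrichment 27.74, 1 mismatch, chr10:64084573-64084608, plus strand: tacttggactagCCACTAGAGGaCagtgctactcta

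The second set holds all 12 core motif sites without a mismatch in the introns of Gse1, a gene with one of the highest densities of member peaks, so that occupied and unoccupied sites of one gene can be read side by side. The first 7 lay inside a peak.
Gse1, in a peak, chr8:120288433-120288468, plus strand: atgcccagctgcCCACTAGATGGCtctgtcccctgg
Gse1, in a peak, chr8:120288635-120288670, plus strand: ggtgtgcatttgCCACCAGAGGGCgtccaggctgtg
Gse1, in a peak, chr8:120301035-120301070, plus strand: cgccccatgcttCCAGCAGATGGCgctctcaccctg
Gse1, in a peak, chr8:120319684-120319719, plus strand: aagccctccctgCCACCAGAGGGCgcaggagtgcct
Gse1, in a peak, chr8:120321880-120321915, minus strand: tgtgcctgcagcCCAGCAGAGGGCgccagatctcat
Gse1, in a peak, chr8:120404705-120404740, plus strand: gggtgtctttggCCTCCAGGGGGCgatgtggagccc
Gse1, in a peak, chr8:120407715-120407750, minus strand: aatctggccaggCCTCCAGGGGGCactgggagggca
Gse1, outside peaks, chr8:120273506-120273541, plus strand: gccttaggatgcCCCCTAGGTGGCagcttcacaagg
Gse1, outside peaks, chr8:120446130-120446165, plus strand: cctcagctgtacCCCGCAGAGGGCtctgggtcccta
Gse1, outside peaks, chr8:120471322-120471357, plus strand: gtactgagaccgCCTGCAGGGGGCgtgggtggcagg
Gse1, outside peaks, chr8:120509178-120509213, plus strand: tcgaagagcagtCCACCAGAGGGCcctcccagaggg
Gse1, outside peaks, chr8:120558055-120558090, minus strand: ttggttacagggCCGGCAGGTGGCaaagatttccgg

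The introns of very long genes carried CTCF peaks at a lower density than any other class of position examined. Across 404 Mb of such intron, outside exons and TSS windows, there were 4.35 peaks per Mb (95% interval 4.15 to 4.56). Introns of genes of 50 to 200 kb held 8.78 peaks per Mb (8.46 to 9.11), introns of genes under 50 kb held 13.7 (13.1 to 14.2), and the sequence between genes held 5.7 (5.57 to 5.83). None of these intervals overlapped that of the very long genes. The GC content of the bases was 41.0% in the introns of very long genes, 42.9% in genes of 50 to 200 kb, 44.3% in shorter genes and 40.7% between genes, and 28.5%, 29.0%, 30.4% and 40.3% of them were repeat, shown by soft-masking. Over the bases that are not soft-masked, with the 1560 members whose midpoint lies in them, the very long genes held 5.4 peaks per Mb. This density was not computed for the other classes, so it cannot be set beside their values over all bases. Of the members, 45.8% were among the 50% of all peaks with the lowest false discovery rate, as were 45.8% of the peaks in genes of 50 to 200 kb, 52.04% of those in shorter genes and 50.65% of those between genes. The 805 members in that set gave 1.99 peaks per Mb.

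**Figure D1:**
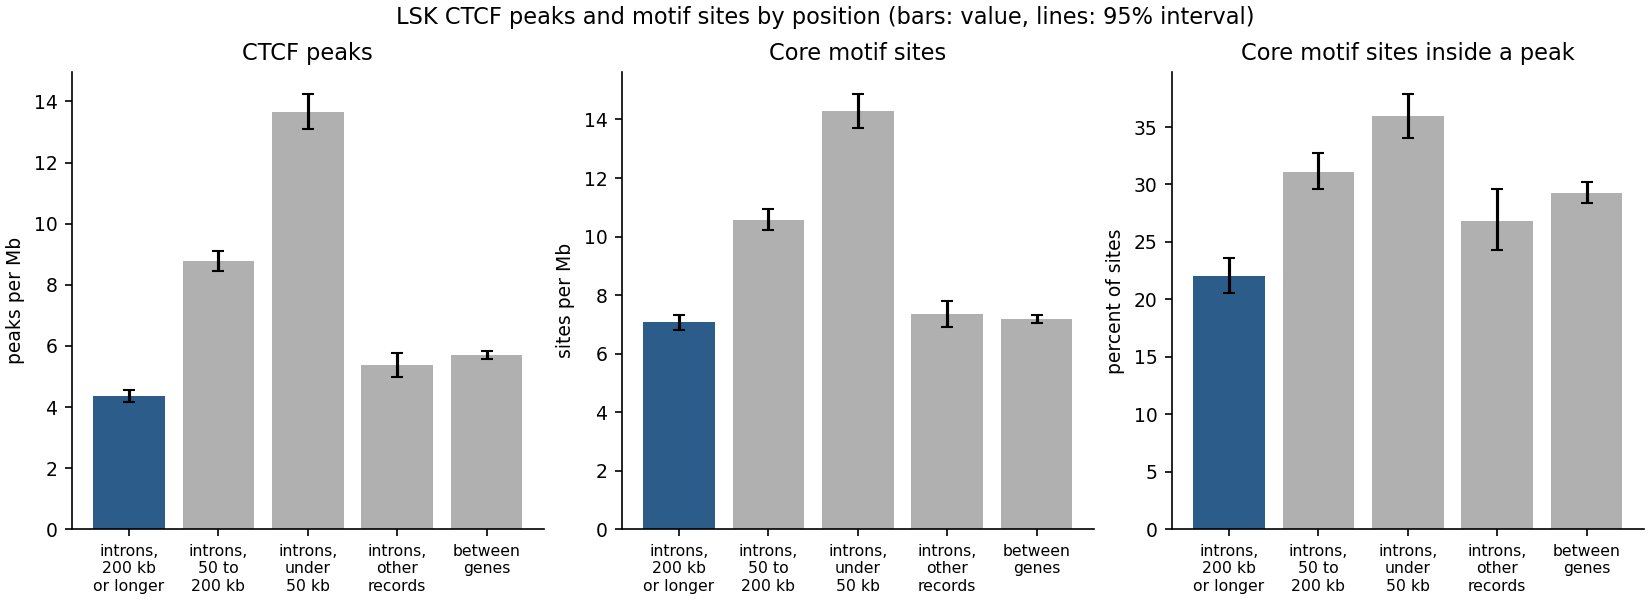
Density of CTCF peaks (peaks per Mb), density of core motif sites (sites per Mb) and share of those sites inside a peak (percent) by class of position. Blue bars are introns of genes of 200 kb or longer, gray bars the other classes, and lines the 95% intervals. The very long genes had 4.35 peaks per Mb and 22.1% of sites inside a peak, below the other 4 classes.

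Against the introns of shorter genes both the motif density and the occupancy of the motifs were lower, and against the sequence between genes only the occupancy was. The introns of very long genes held 2858 sites without a mismatch, or 7.07 per Mb (6.82 to 7.34), against 10.6 per Mb in genes of 50 to 200 kb and 14.3 in genes under 50 kb. Between genes the density of sites was 7.185 per Mb (7.04 to 7.33), an interval that overlapped that of the very long genes. The share of sites inside a peak was lower than in each of these classes. In the introns of very long genes 631 sites were in a peak (22.1%, 20.6% to 23.6%), while the share was 31.1% (29.6% to 32.7%) in genes of 50 to 200 kb, 35.9% (34.0% to 37.9%) in shorter genes and 29.3% (28.4% to 30.2%) between genes. Leaving out the 13.1% of sites that are mostly repeat kept the order: 23.4% (21.7% to 25.1%) of the remaining sites in very long genes were occupied, against 33.6%, 38.6% and 33.5% in the other classes.

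Occupied and unoccupied sites differed at positions that the core motif leaves open. Counting from 1 at the first capital letter, position 3 was A in 81.5% (78.2% to 84.3%) of the occupied sites in introns of very long genes and in 48.4% (46.3% to 50.4%) of the unoccupied ones. Position 13, the first lower-case base after the capitals, was A or G in 92.9% (90.6% to 94.6%) of occupied and 48.6% (46.5% to 50.7%) of unoccupied sites. Both positions were chosen after the values were seen. In Gse1, 4 of the 7 occupied sites had both features, and 0 of the 5 others did. Between genes the same shares were 81.0% and 49.2% at position 3 and 93.6% and 51.98% at position 13, so the contrast was of similar size there. Sites with both features were 38.3% of those in very long genes, 41.5% in genes of 50 to 200 kb, 46.2% in shorter genes and 43.7% between genes. Among these sites alone, 43.9% (41.0% to 46.8%) were occupied in very long genes, against 54.7% (52.1% to 57.3%), 58.3% (55.3% to 61.1%) and 51.0% (49.5% to 52.5%) in the other classes. Of the sites without both features, 8.51% (7.3% to 9.91%) were occupied in very long genes and 12.5% (11.6% to 13.4%) between genes. The share occupied was thus lowest in the very long genes among sites with both features and among sites without them, and the part of other features of the sites was not tested.

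Seen from the peaks, the members held the core motif about as often as the whole list, with a somewhat lower GC content and fewer peaks made mostly of repeats. The core motif without a mismatch was present in 618 members (35.1%, 32.9% to 37.4%), where 35.6% of all peaks held it. With up to 1 mismatch allowed the share was 83.5% (81.7% to 85.2%), where 83.6% of all peaks held a site. Exactly 1 motif was found in 606 members, at a median of 25 bp from the midpoint of the peak and within 100 bp of it in 577 of them. Only 12 members held 2 or more motifs, and 1 held 4. The median fold enrichment of the members, the authors' ratio of signal over background on a linear scale, was 9.79 (quartiles 7.5 and 12.4), against 9.79 (7.83 and 13.1) in genes of 50 to 200 kb, 10.4 (7.83 and 13.7) in shorter genes and 10.1 (7.83 and 13.4) between genes. The median −log10 p-value was 11.4 in the members, 11.6 in genes of 50 to 200 kb and 12.6 in all peaks. Their median width was 715 bp, as in the whole list. The median GC content of a member was 44.5%, against 47.0% in all peaks, 46.2% in genes of 50 to 200 kb, 48.4% in shorter genes and 46.0% between genes. Repeats made up a median of 12.9% of a member, and 59 members (3.35%, 2.61% to 4.3%) were more than 50% repeat, where 6.19% of all peaks were.

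The density of peaks was lower in the longer genes. The 431 genes of 200 to 300 kb held 6.24 peaks per Mb of intron (5.75 to 6.76), the 337 genes of 300 to 500 kb held 4.66 (4.28 to 5.06), the 171 genes of 500 kb to 1 Mb held 3.32 (2.99 to 3.68), and the 59 genes of 1 Mb or longer held 3.05 (2.68 to 3.46), the last 2 with overlapping intervals. Leaving out the 3 records of 1 Mb or longer that span 5 or more other protein-coding records, described with the host genes, the value of the longest genes was 1.85 (1.55 to 2.19). Motif sites followed the same order, with 9.06, 7.58, 6.0 and 5.43 per Mb, and so did GC content, with 42.4%, 41.5%, 40.3% and 39.7%. The share of sites inside a peak was 23.8% (21.1% to 26.7%) in the shortest of these groups and 19.6% (16.2% to 23.6%) in the longest, and these intervals overlapped. Without the spanning records it was 14.2% (10.8% to 18.5%) in the longest, an interval that did not overlap that of the shortest group. The share of genes with at least 1 member was 67.3% in genes of 200 to 300 kb and 74.6% in genes of 1 Mb or longer, with overlapping intervals.

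**Figure D2:**
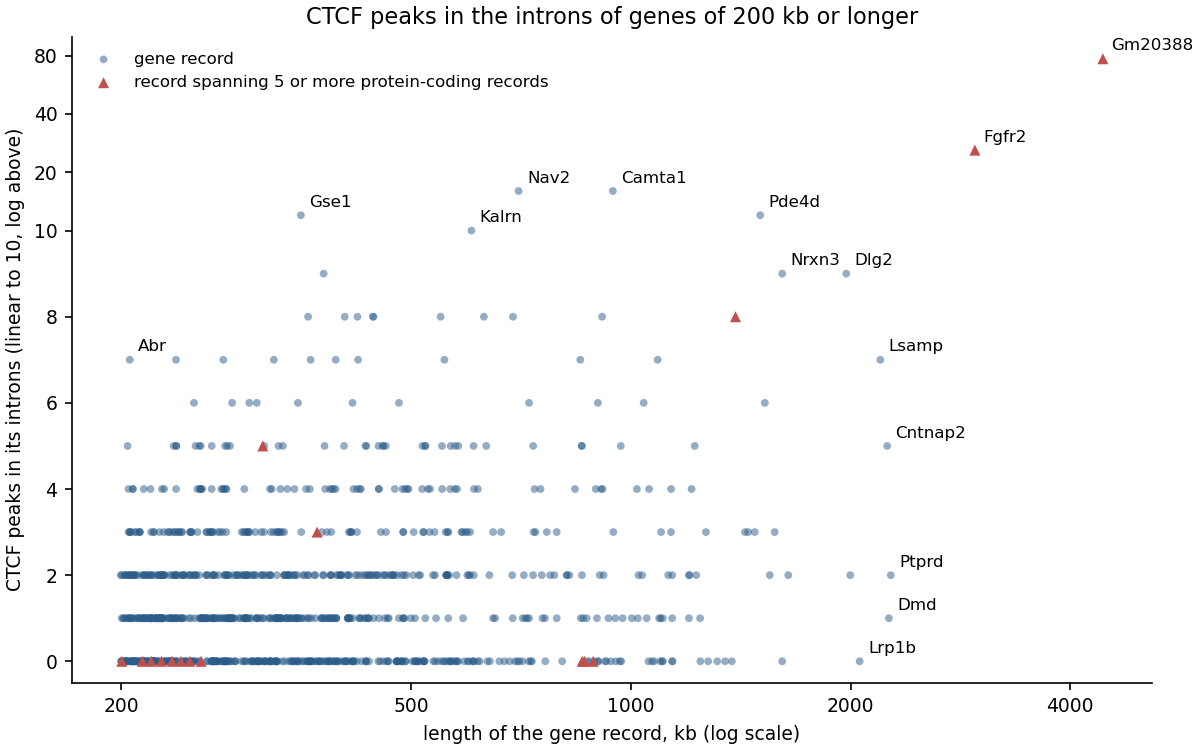
Number of CTCF peaks in the introns of each of the 998 gene records of 200 kb or longer (y axis, linear to 10 and log above) against the length of the record in kb (x axis, log scale). Blue points are gene records and red triangles the 16 records that span 5 or more other protein-coding records. Of the 998 genes, 323 held no peak, 244 held 1 and 190 held 2, and Gm20388 with 77 and Fgfr2 with 26 stand apart.

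Most very long genes held few peaks. Of the 998 genes, 323 (32.4%) had no member, 244 had 1, 190 had 2, 99 had 3, 62 had 4, 38 had 5 and 42 had 6 or more. The highest counts belonged to 2 records that run across other genes. Gm20388, a predicted gene, covers 4435 kb of Chromosome 8 and 71 other protein-coding records, and it held 77 members, or 20.9 per Mb. The Fgfr2 record, which carries the name of a fibroblast growth factor receptor, covers 2961 kb of Chromosome 7 and 29 other protein-coding records, and it held 26 members, or 9.9 per Mb. In all, 16 records span 5 or more protein-coding records, 11 of them without a member. For 119 members (6.77%) the longest host was such a record. Counted over all members, 64 lay inside another protein-coding record under 200 kb, and these 64 can as well be read as peaks in introns of shorter genes. Many members of Gm20388 lay in no record under 200 kb, among them its peaks with fold enrichments of 31 and 30.67. Such peaks count as intronic only through a record of 200 kb or longer. The nearest TSS was that of Fam92b, at 1712 bp, for the first of these peaks and that of Zfp469, at 10011 bp, for the other. Without the 119 members and their introns the density was 4.15 peaks per Mb (3.95 to 4.36).

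By fold enrichment, the strongest members were spread over genes of different kinds. The highest fold enrichment, 31.98, was found in intron 11 of 21 of Palld, which encodes the actin-associated protein palladin, 28.6 kb from the 3′ end of the gene on Chromosome 8 (61539560 to 61540446). Next came 2 peaks of Gm20388, at 31 and 30.67. Zfhx3, a homeobox and zinc finger transcription factor, held a peak of 29.37 in intron 10 of 15, and Ctif, which encodes a translation initiation factor of the nuclear cap-binding complex, held one of 28.71. Further peaks among the strongest were in Fgfr2 (28.06), Ctnna3, the α-catenin of heart and testis (27.74), Fgf12, an intracellular fibroblast growth factor that acts on sodium channels (27.08), and Apbb2, an adaptor that binds the amyloid precursor protein (25.45). The Fgfr2 peak also lay inside the record of Ctbp2, and the Ctnna3 peak inside that of Lrrtm3. Of the peaks named here, those of Gm20388 at 31 and of Ctif held the core motif without a mismatch. The peaks of Fgfr2, Fgf12 and Apbb2 held no site even with 1 mismatch. By −log10 p-value the order differs: the highest value of a member, 185.8, was also the highest of all peaks. None of the peaks named here had it, and the highest value among them was 95.2 in Ctif.

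Ranked by density, the leading genes were 205.6 to 379.1 kb long. Among host genes with 3 or more members, Abr, a regulator of small GTPases, held 7 peaks in 205.6 kb (37.7 per Mb of intron). Gse1, a coiled-coil protein found with corepressor complexes, held 12 in 352.9 kb (36.0 per Mb). Prkag2, a regulatory subunit of AMP-activated protein kinase, held 7 (31.6 per Mb), Rapgef4, an exchange factor for Rap GTPases that is activated by cyclic AMP, held 7 (27.7 per Mb), and Fry, a microtubule-associated protein, held 9 (26.5 per Mb). Gse1 lies inside the Gm20388 record, and its 12 peaks are counted in both. The 7 peaks of Abr ranged in fold enrichment from 6.53 to 18.6 with a median of 13.05, and the 12 of Gse1 from 5.22 to 22.51 with a median of 13.87, both medians above the upper quartile of all members. In Abr, 4 of the 6 motif sites were inside a peak. The 9 peaks of Fry ranged from 6.2 to 15.01 with a median of 7.5, and its introns held only 3 motif sites, 1 of them occupied.

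By count, the leading genes other than the spanning records were Nav2 and Camta1 with 16 peaks each. Nav2 encodes a neuron navigator of the cytoskeleton, and its peaks ran from 5.88 to 19.58 over 701.4 kb. The strongest lay 212.8 kb from the 5′ end, with peaks of 10.44 and 10.22 within 12 kb of it. Camta1 encodes a calmodulin-binding transcription activator, and 11 of its 16 peaks lay between 559.5 and 895.1 kb from the 5′ end of its 944.6 kb. Its record covers 4 other protein-coding records, just under the limit for a spanning record. The peaks at 834.7 and 854.7 kb from its 5′ end also lay inside the record of Per3. Of the 9 Camta1 peaks with 1 motif, 7 had it on the strand opposite to the gene. Pde4d, a phosphodiesterase of cyclic AMP, held 12 peaks, all of them 432.1 kb or more from the 5′ end, and Kalrn, an exchange factor for small GTPases, held 10. Nrxn3, a presynaptic adhesion protein, and Dlg2, a scaffold protein of the postsynaptic density, held 9 each. In Dlg2 the first peak stood 750 kb from the 5′ end. In Nrxn3, 8 of the 9 peaks lay between 579.3 and 782.5 kb from the 5′ end, and the last at 1086 kb.

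**Figure D3:**
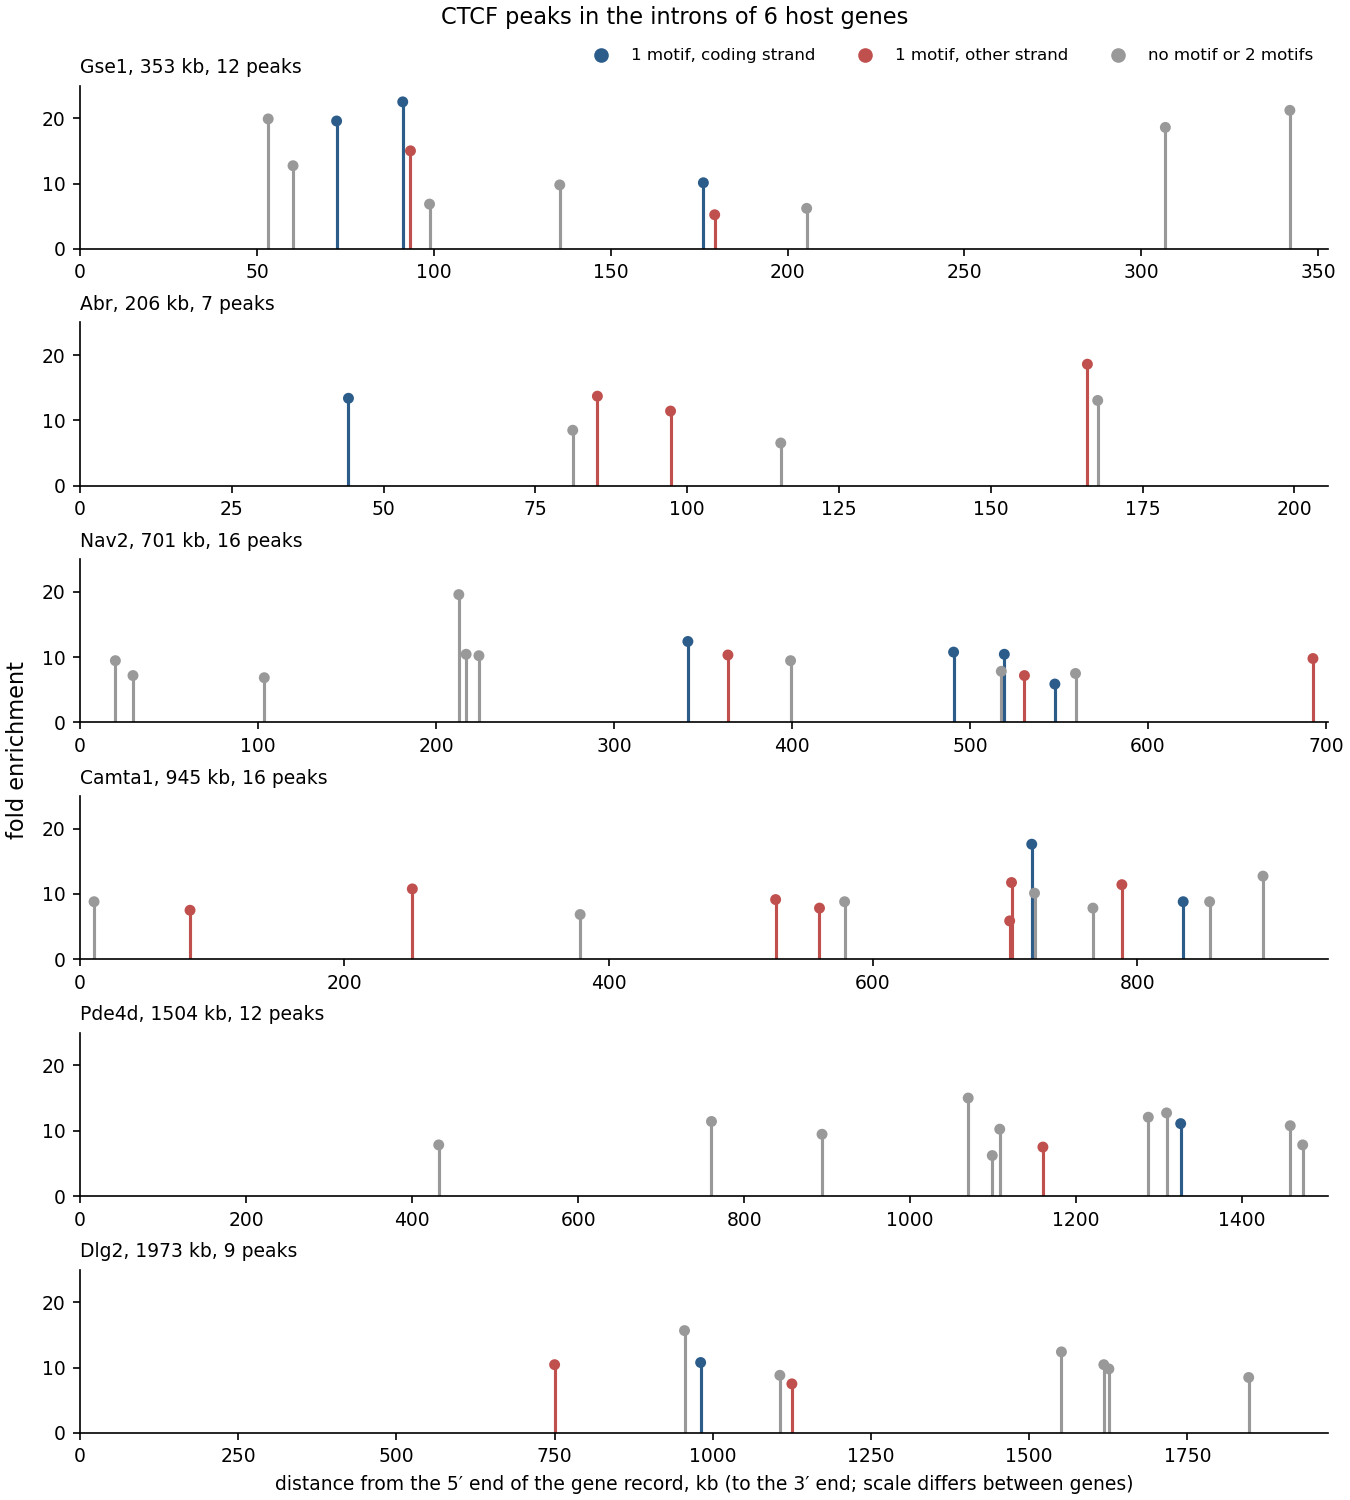
Fold enrichment (y axis) of each CTCF peak in the introns of Gse1, Abr, Nav2, Camta1, Pde4d and Dlg2, by distance from the 5′ end of the gene record in kb (x axis, a scale of its own for each gene). Blue marks a single motif on the coding strand, red a single motif on the other strand, and gray no motif or 2. The peaks of Pde4d and Dlg2 begin 432.1 and 750 kb into the gene, while those of Nav2 and Camta1 begin within 20 kb.

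The 10 longest records held from 0 to 77 peaks. After Gm20388 and Fgfr2 came Ptprd, a receptor tyrosine phosphatase of synapses, with 2 peaks in 2271 kb. Dmd, which encodes dystrophin, held 1 peak in 2257 kb of Chromosome X. Cntnap2, a neurexin-like adhesion protein, held 5, of which the strongest reached 22.51. Lsamp, an adhesion protein of limbic neurons, held 7, Dlg2 held 9, Macrod2, an ADP-ribose hydrolase, held 2, and Csmd1, a complement regulatory protein of neurons, held 2. Lrp1b, a lipoprotein receptor-related protein of 2058 kb, held none, although 9 core motif sites lie in its introns. The next longest genes without a member were Fhit, a diadenosine triphosphate hydrolase (7 sites), Il1rapl1, a synaptic relative of the interleukin 1 receptor on Chromosome X (3 sites), Naaladl2, a relative of glutamate carboxypeptidase (0 sites), and Lrrc4c, a synaptic adhesion protein (5 sites). A gene with no peak in this list may hold CTCF sites below the threshold of the authors' peak caller.

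Gene lists that fit the tissue and the kinds of very long genes were then compared, keeping only their members of 200 kb or longer. Over all 998 genes, a gene held a median of 1 peak, at a median of 3.71 per Mb of its own intron, and the pooled density was 4.35 per Mb. The 15 transcription factors of blood cells held 18 peaks in 10 genes, or 3.47 per Mb (2.05 to 5.48), with a median of 1 per gene, and 5 of their 48 motif sites were occupied (10.4%, 4.53% to 22.2%). Rora, a nuclear receptor, held 5 of these peaks. Mecom, a zinc finger regulator of stem cells, held 2 peaks, both within 40 kb of the 5′ end of its 596.7 kb, with fold enrichments of 10.77 and 5.87. Prdm16, another regulator of stem cell maintenance, and Tcf4, an E protein, held 2 each. Foxp1, a forkhead factor of 597.4 kb with 7 sites, and Nfia, a nuclear factor I protein with 0 sites, held none.

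The 16 signalling genes of blood cells held 43 peaks in 15 genes, or 6.68 per Mb (4.84 to 9.0), with a median of 2.5 per gene, and 18 of 60 sites were occupied (95% interval 19.9% to 42.5%). Plcb1, a phospholipase C that acts downstream of G proteins, led with 8, of which 6 lay between 538.1 and 653.5 kb from the 5′ end of its 689.2 kb. Elmo1, a partner of DOCK exchange factors in cell migration, held 5, and the protein kinases C Prkcb and Prkce held 4 each. Dock8, an exchange factor for Cdc42 in leukocytes, was the only one of the 16 without a peak. The intervals of the signalling genes and the transcription factors overlapped, in density as in occupancy. The 11 chromatin and transcription regulators held 26 peaks in 10 genes, or 5.8 per Mb (3.79 to 8.49), with a median of 2. Jazf1, a zinc finger subunit of a histone acetyltransferase complex, held 6, Smyd3, a methyltransferase, held 5, and Arid1b, a subunit of the BAF remodeling complex, and Phf21a, a reader of unmethylated histone H3, held 3 each. Setbp1, a SET-binding protein, held none and had 0 motif sites.

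The lists of neuronal genes and fragile sites were at the low end of density. The 30 neuronal adhesion and synapse genes, with a median length of 1101100 bp, held 83 peaks in 22 genes, or 2.35 per Mb (1.87 to 2.91), which did not overlap the interval of all very long genes. Besides Nrxn3, Dlg2 and Lsamp, the RNA splicing factor Rbfox1 held 6 of them, while Dcc, a netrin receptor, and Nrg3, a neuregulin, held none in over 1 Mb each. The 10 genes of common fragile sites, with a median length of 1360468 bp, held 19 peaks in 6 genes, or 1.3 per Mb (0.784 to 2.03). Wwox, an oxidoreductase with WW domains, accounted for 8 of the 19, and Ccser1 and Macrod2 held 2 each. Wwox held 17 motif sites, 6 of them in a peak. These lists hold longer genes than the others, and their motif sites were sparser too, at 5.15 and 3.7 per Mb against 7.08 over all very long genes, so that length and list cannot be told apart here. Their occupancy, 17.03% (12.3% to 23.2%) and 18.5% (10.4% to 30.8%), overlapped the 22.3% (20.8% to 23.8%) of all very long genes.

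Among the 20 ion channels and receptors, 13 held 46 peaks in all, or 3.72 per Mb (2.72 to 4.96), with a median of 2 per gene. Only 11 of their 91 motif sites were occupied (12.1%, 6.89% to 20.4%), an interval that ended just below that of all very long genes. The calcium channel gene Cacna1a and the potassium channel gene Kcnma1 led with 6 peaks each, followed by the cation channel gene Trpm3 with 5 and Cacna1c with 4, while the glutamate receptor genes Grm7 and Grid1 held none. The 18 genes of the cytoskeleton and membrane traffic held 43 peaks in 16 genes, or 5.31 per Mb (3.85 to 7.16), with a median of 2, and 9 of 43 sites were occupied (20.9%). Ank3, an ankyrin, led with 8 peaks, none of them over 13.7 in fold enrichment and none with a core motif site of its introns inside. Snx29, a sorting nexin, held 5, and Ank2, another ankyrin, and Exoc6b, a subunit of the exocyst, held 4 each. Diaph3, a formin, and Fto, an RNA demethylase that the list also holds, had none.

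**Figure D4:**
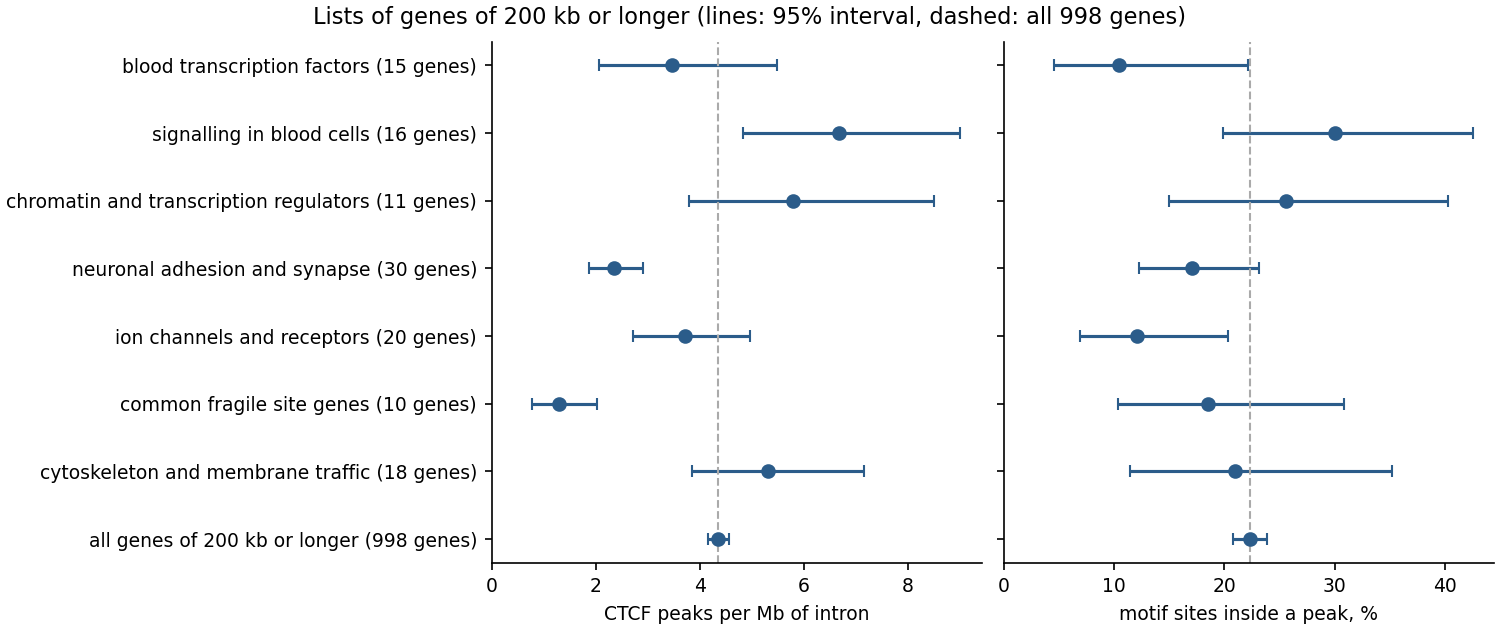
CTCF peaks per Mb of intron (left) and percent of core motif sites inside a peak (right) for 7 lists of genes of 200 kb or longer and for all 998 such genes. Points are the pooled values, lines the 95% intervals and dashed lines the values of all very long genes. Neuronal genes and fragile site genes lie below the dashed line in density, at 2.35 and 1.3 per Mb.

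Within the genes, member peaks were denser toward the 3′ end. The last of 10 equal parts of the gene length held 282 members (16.0%, 14.4% to 17.8%) and 9.25% of the bases, the first held 160 (9.1%, 7.84% to 10.5%) and 9.79% of the bases, and the parts between them held 131 to 209. By distance, there were 10.2 peaks per Mb (7.91 to 13.01) in the last 10 kb before the 3′ end, 10.5 (8.49 to 12.8) from 10 to 20 kb, 7.19 (6.22 to 8.26) from 20 to 50 kb, 4.83 (4.21 to 5.5) from 50 to 100 kb, and 3.74 (3.53 to 3.96) farther away. No such gradient was found from the 5′ end, where the same distances gave 5.2 (3.73 to 7.05), 4.87, 4.28, 4.42 and 4.31 (4.08 to 4.55) peaks per Mb. Toward the 3′ end both the density of motif sites and their occupancy were higher. Sites numbered 12.1 per Mb in the last 10 kb and 6.45 beyond 100 kb, and 37.2% (27.3% to 48.3%) and 20.5% (18.8% to 22.3%) of them were inside a peak. The GC content of the bases was 42.7% in the last 10 kb and 40.8% beyond 100 kb, and its part in the gradient was not tested. Leaving out the spanning records, the last of the 10 parts held 277 of 1640 members (16.9%, 15.2% to 18.8%).

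Genes of 50 to 200 kb had the same gradient at a higher level, with 14.2 peaks per Mb (12.8 to 15.7) in the last 10 kb and 5.6 (4.95 to 6.31) beyond 100 kb from the 3′ end. In the last 20 kb, the occupancy of motif sites in the very long genes, 37.2% and 38.3% in its 10 kb steps, overlapped that of the shorter genes, 39.2% and 36.7%. From 50 to 100 kb it was 19.4% (15.7% to 23.7%) against 28.5% (25.9% to 31.4%), intervals that did not overlap. The 161 members within 20 kb of the 3′ end lay in 141 genes. Their median fold enrichment was 10.1, against 9.79 in the other 1598. The core motif was held by 42.9% (35.5% to 50.6%) of these members, against 34.4% (32.1% to 36.7%) of the others, with overlapping intervals. The nearest TSS of any gene record was at a median of 24.6 kb for these members and 39.2 kb for the others.

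**Figure D5:**
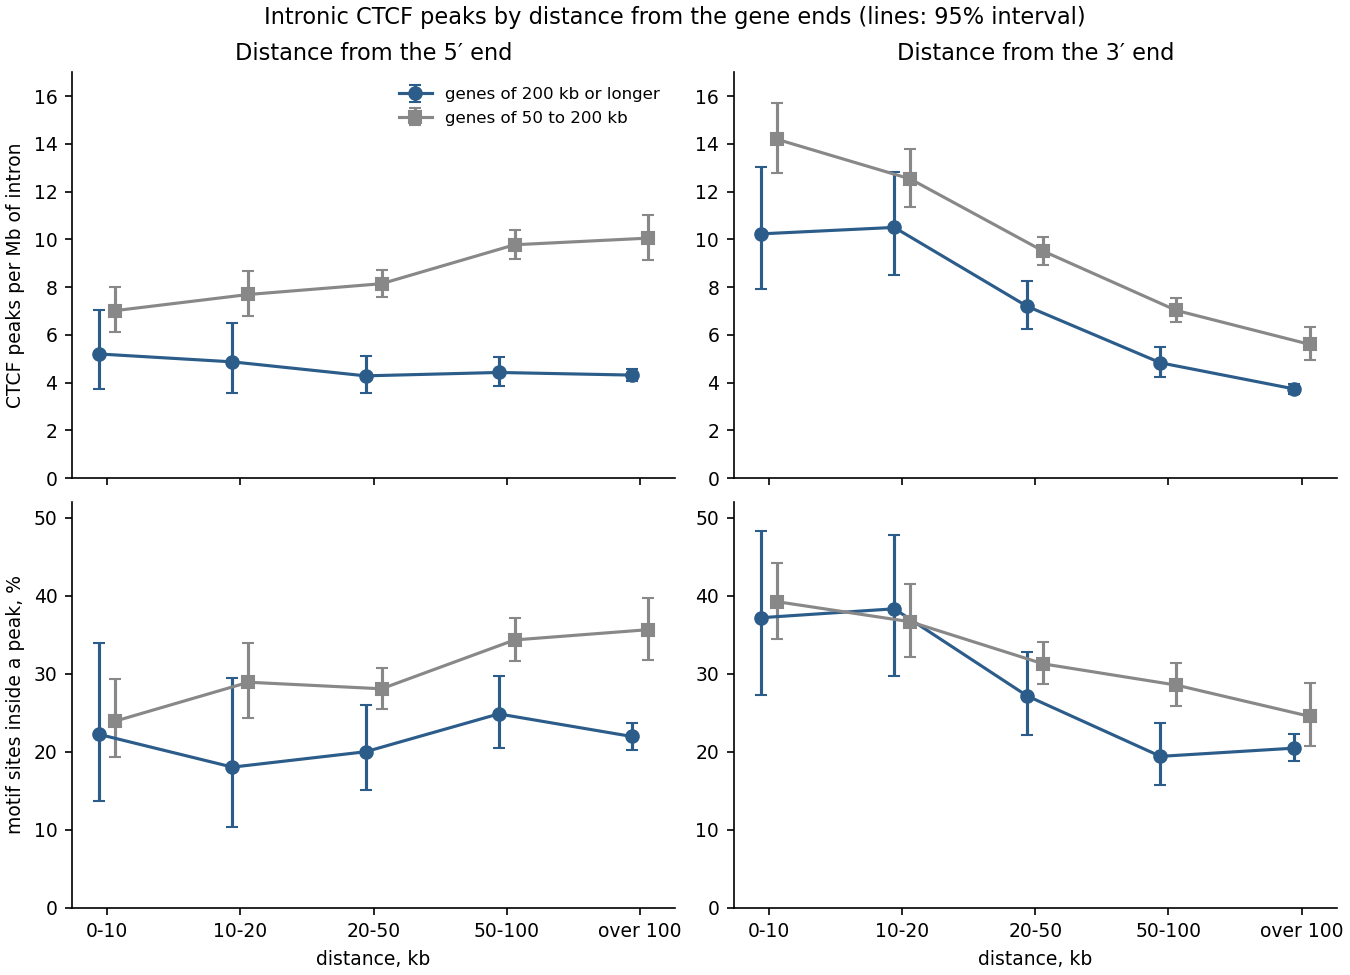
CTCF peaks per Mb of intron (top) and percent of core motif sites inside a peak (bottom) by distance in kb from the 5′ end (left) and the 3′ end (right) of the gene. Blue circles are genes of 200 kb or longer, gray squares genes of 50 to 200 kb, and vertical lines 95% intervals. In very long genes the density was 10.2 peaks per Mb in the last 10 kb and 3.74 beyond 100 kb from the 3′ end, and about level from the 5′ end.

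Members also lay closer to exons than the bases of the same introns do. Their median distance from the nearest exon of any record was 4295 bp, against 9593 bp over the bases, and 361 members (20.5%) were within 1 kb of one, where 10.5% of the bases are. The density was 8.54 peaks per Mb (7.68 to 9.46) under 1 kb from an exon, 6.04 (5.56 to 6.55) from 1 to 5 kb, 3.56 (3.26 to 3.88) from 5 to 20 kb, 2.96 (2.6 to 3.35) from 20 to 50 kb and 1.42 (1.06 to 1.86) at 50 kb or more. Since 155 members reach an exon with part of the peak, 1604 remained when the whole peak had to lie outside exons. The first intron of the longest coding transcript held 335 members (19.0%, 17.3% to 21.0%) and 21.7% of the bases. Another 69 members (3.92%), several of them in Fry, lay in no intron of that transcript. The median distance from the nearest TSS was 38.0 kb, against 49.2 kb over the bases, and the neighboring peak was at a median of 29.8 kb, against 18.9 kb for all peaks.

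The motifs lay about equally often on both strands of the host genes. Of the 606 members with exactly 1 motif, 287 had it on the coding strand of the host gene (47.4%, 43.4% to 51.3%), as did 48.9% (47.0% to 50.7%) of all 2858 sites of these introns. There were 142 pairs of neighboring peaks in the same gene with 1 motif each. They were convergent in 34 pairs (23.9%, 17.7% to 31.6%), divergent in 43 (30.3%) and on the same strand in 65 (45.8%), where the strand counts alone give 24.99% convergent pairs and 25.8% (24.04% to 27.6%) of 2372 neighboring pairs in the whole list were convergent. Among the 100 pairs no more than 100 kb apart, 19 were convergent (95% interval 12.5% to 27.8%) and 35 divergent (95% interval 26.4% to 44.7%). Of the 1731 pairs of the whole list within that distance 22.0% were convergent and 28.6% divergent, and both shares lay inside the intervals of the members. Pairing of motifs over longer distances, as in loops that skip a peak, was not examined.

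Chromosome X had the lowest density of member peaks, with 20 members, or 1.02 per Mb of intron (0.621 to 1.57), against 4.52 (4.31 to 4.74) on the autosomes. Its sites were also sparser, at 4.22 against 7.22 per Mb, and 7 of 83 were in a peak (8.43%, 4.14% to 16.4%), against 22.5% (21.0% to 24.1%). Male animals carry a single X, and the part of copy number in the low density was not tested. The median fold enrichment was 7.83 in the 20 members on X and 9.79 on the autosomes. Among the autosomes the density ran from 3.1 per Mb on Chromosome 14 to 6.54 on Chromosome 7. The spanning record Fgfr2 holds 26 of the 123 members on Chromosome 7, and the density per chromosome was not computed without such records.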

How the data were processed

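CTCF ChIP-seq peaks of 1 LSK library were analyzed, which the authors mapped to mm10. According to the methods, alignment used Bowtie and peak calling MACS, reads that map more than once were kept, and those on ChrM or unplaced sequence were dropped. Bowtie 1.0.0 and bcl2fastq stand in the processing notes of the submitters, whereas the methods name another version of Bowtie. How MACS was set, and against which control, is not stated in the sources at hand. Per peak, the authors deposited a fold enrichment (a linear ratio), a −log10 p-value, lowest at 5.001, and a false discovery rate of unstated scale, used only to order peaks. The deposited list gives no read counts, so the depth behind a peak is unknown.

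The rest was computed with pandas 2.3.3, scipy 1.17.1 and numpy 2.4.6 under Python 3.11.15, and figures with matplotlib 3.10.9, from GENCODE M21 and the RefSeq copy of GRCm38.p6. Peaks were classed in order as at a TSS, in an exon, in the introns of protein-coding genes by the longest host, in introns of other records, or between genes. Densities divide by the bases of the same class, with TSS windows widened by 357 bp for peak width. The core motif was searched on both strands, and a site counted as occupied when its center lay in a peak. Shares have Wilson and densities exact Poisson 95% intervals, which treat peaks and sites as independent. The motif search, the classing of bases and the intervals were tested on simulated data, and the other steps were not. The members, lists and comparisons were chosen with earlier results of these data known. Named genes were the hosts of the 10 members with the highest fold enrichment, the 10 hosts with most members, the 10 longest genes, the 5 longest without a member, the 5 densest with 3 or more, and in each list up to 4 with most members and 2 without. A gene that this rule names is not reported here. The alternatives were other length limits, exon and TSS rules, motif settings and a stricter list. Leaving out spanning records was added after the data were seen.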

Additional observations from a re-analysis of the deposited data

How the results depend on the processing

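Of 28 alternatives for 8 results, 20 stayed within 1.5 times the reported count or within the reported 95% interval. With genes of 300 kb or longer there were 1163 members. With the 50% of the peaks of lowest false discovery rate there were 805 members, at 1.99 per Mb, of which 40.9% held the core motif, and 45.0% of very long genes had one. Allowing 1 mismatch gave 83.5% with the motif. The density was 5.4 per Mb over bases that are not soft-masked and 4.15 without records that span 5 or more protein-coding records, an alternative added after the data were seen. The lower counts and the higher share with 1 mismatch follow from how these alternatives are built. So do the lower density and the lower share of genes with a member when only the peaks of lowest false discovery rate are kept. For the other values the cause was not tested. No paired analysis was possible because only 1 ChIP library exists, so that no replicate could be left out either. The main limit is this single list: sites below the caller's threshold are missing from it, and without read counts the depth behind it is unknown.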
